A study of Mus musculus with 16 samples.

Results

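The NF-kB subunit genes and the genes that feed back on NF-kB were examined in KPC1199 cells, a line of mouse pancreatic tumor cells, with and without the Sin3B guide and with and without interferon gamma (IFNγ). The 10 genes were chosen by symbol in both deposited count tables: the subunits Nfkb1, Nfkb2, Rela and Relb, the inhibitors and nuclear relatives of the IkB family Nfkbia, Nfkbie, Nfkbiz and Bcl3, and the ubiquitin regulators Tnfaip3 and Birc3. Each symbol stood in 1 row of each table, among 55414 named genes (untreated) and 56980 (with or without IFNγ), and the 10 genes all passed the filter on low counts that left 14589 and 14913 genes for testing. The untreated experiment held 2 libraries with the control guide (sgCtrL, labelled WT) and 2 with the guide Sin3Bsg1 (Sin3B KO), neither with IFNγ. The IFNγ experiment held 3 libraries for each guide without IFNγ and 3 for each guide after 10 ng/ml IFNγ for 24 hours. Cells of the KPC model carry tumor alleles that are switched on by Cre in the pancreas, and controls and edited cells share this background. The genotype rests on 1 guide, and the labels do not tell whether the edited cells are 1 clone or a mixture, nor whether replicates are separate cultures, so that p-values measure the spread between these libraries, which may be technical.

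NF-kB is a family of transcription factors that pair with each other and are held in the cytoplasm by IkB proteins until kinases mark the IkB for destruction. Several of the genes that NF-kB switches on encode its own inhibitors or its own subunits, and such feedback genes are often read as a measure of NF-kB activity in inflamed epithelium and in tumors. IRF1 is among the factors through which IFNγ acts, and SIN3B is a scaffold that holds histone deacetylases at genes.

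The guide that defines the edited group is shown first, with the PAM next to its match in capitals, because each genotype comparison rests on it. It matches the mouse genome GRCm39 at 1 place, chr8:73449982-73450004 on the plus strand, in the coding part of exon 1 of Sin3b. The same place also lies in exon 1 of another annotated gene, Gm63813.
Sin3Bsg1: tggctcccgctggggtcgttCGG
Sin3b itself stood at 83.3 to 88.5 CPM (counts scaled to library size) in the untreated sgCtrL libraries and at 34.1 to 36.5 CPM in Sin3Bsg1, and fell by 1.28 on the log2 scale (SE 0.049, edgeR adjusted p = 1.19e-11). Its log2 fold change was -1.24 (SE 0.052) without IFNγ and -1.22 (SE 0.052) with IFNγ. Irf1 rose with IFNγ by 3.51 in sgCtrL and by 3.57 in Sin3Bsg1 on the log2 scale. The libraries held 29499676 to 32093612 counts in the untreated and 18128016 to 27056813 in the IFNγ experiment. One library stood apart: the first sgCtrL library with IFNγ had a chi-square per gene against its replicates that averaged 19.5 and 23.2, where that between those replicates was 4.12, and results that change without it are given both ways. The first Sin3Bsg1 library with IFNγ differed from its replicates too, but less, at 6.91 and 9.63 against 3.52 between them. The 7 ductal epithelial markers (keratins, Epcam, Cdh1, Sox9) were above 3 counts in every group, the 6 leukocyte markers (Ptprc, Cd3e, Cd8a, Adgre1, Csf1r, Itgam) were at 3 counts or fewer in every library, and so were the endothelial markers Cdh5 and Kdr, while the third, Pecam1, reached 12 counts in a library. The ductal markers summed to 5499 and 5516 TPM in untreated sgCtrL and to 7267 and 7367 TPM in untreated Sin3Bsg1. They ran from 3886 to 3965 TPM against 4208 to 4311 TPM without IFNγ, and from 3896 to 4626 TPM against 5161 to 5353 TPM with it. The 5 fibroblast markers summed to 31.2 and 31.3 TPM against 9.63 and 10.8 TPM in the untreated experiment, mostly Pdgfra. In the IFNγ experiment they ran from 85.8 to 89.5 TPM against 75.2 to 79.9 TPM without IFNγ, and from 63.2 to 64.3 TPM against 54.5 to 60.4 TPM with it. Their members differed there. Pdgfrb was higher in Sin3Bsg1, at 34.9 against 30.6 CPM on average without IFNγ and 24.2 against 20.1 CPM with it. Acta2 went from 0.314 to 5.67 CPM with IFNγ in sgCtrL and from 0.446 to 5.22 CPM in Sin3Bsg1, and Dcn and Lum were at 3 counts or fewer. The part of either list in the results was not tested. In such bulk RNA fewer cells of a type and less RNA per cell cannot be told apart.

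The promoters of the inhibitor genes Nfkbia, Nfkbie, Tnfaip3 and Bcl3 and of the subunit gene Nfkb2 hold matches to the 10-base NF-kB consensus, and these matches are printed in capitals below because each of these genes differed between the genotypes in at least 1 comparison. Promoter windows from 250 bases before to 50 after the RefSeq start (GRCm38.p6, sequence on the strand of the gene) were at hand for 7 of the 10 genes and covered 10 starts. Nfkb1, Relb and Nfkbiz had none.
Nfkbia, chr12:55492657-55492686, minus strand: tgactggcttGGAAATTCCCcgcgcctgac
Nfkbie, chr17:45555584-45555613, plus strand: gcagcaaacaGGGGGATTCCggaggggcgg
Tnfaip3, chr10:19015516-19015545, minus strand: gactcacgcgGGGACACCCCggggcgggac
Tnfaip3, chr10:19015403-19015432, minus strand: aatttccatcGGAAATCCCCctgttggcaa
Nfkb2, chr19:46304689-46304717, plus strand: gatcgtcacGGGAATTCCCCccctcgggg
Nfkb2, chr19:46304716-46304745, plus strand: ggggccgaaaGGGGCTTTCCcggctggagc
Bcl3, chr7:19822734-19822763, minus strand: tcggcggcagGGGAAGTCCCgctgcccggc
The consensus was searched on both strands, and the Nfkb2 line at chr19:46304689 merges a pair of overlapping matches. Of Nfkb2, whose other starts also have matches, the first window is shown. The first base of the match lay at -29 from the start of Nfkbia, at -106 of Nfkbie, at -125 and -12 of Tnfaip3, and at -39 and -11 of the first Nfkb2 window. That of Bcl3 lay at 2 bases after the start, and none was found in the windows of Rela, Birc3 and the second start of Tnfaip3. Among 32851 windows of all genes 8.46% held the consensus. That share counts windows and not genes, and here Nfkb2 had 3 windows and Tnfaip3 had 2. The repeated GAAA of interferon response elements (GAAA, any 2 bases, GAAA) stood in none of the 10 windows of the 7 genes, against 3.44% of all windows. So few windows cannot be told apart from that share, and Nfkb1, Relb and Nfkbiz were not covered. The sequence TTC, any 3 bases, GAA was also searched. It stood in 1 of the 10 windows, the first of Nfkb2, at -148, against 8.3% of all windows. These matches are letters in the reference sequence, and the binding of any factor was not measured in these libraries.

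**Figure D1:**
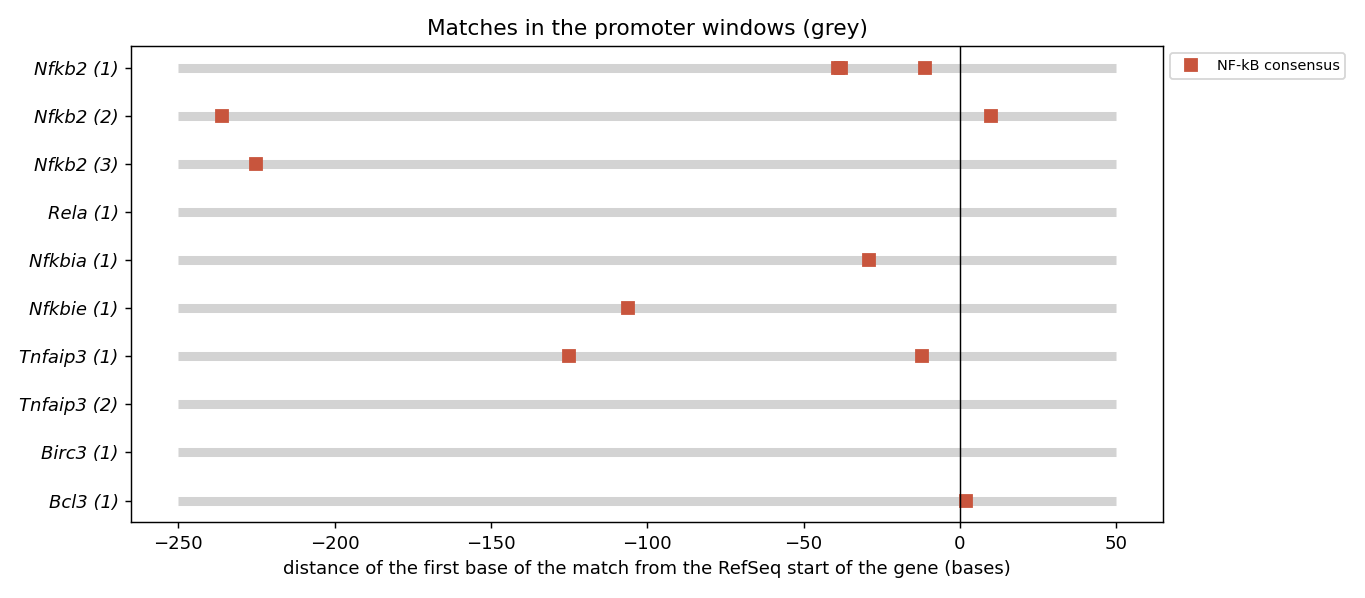
Position of consensus matches in 10 promoter windows of 7 genes. Each grey bar is a window from 250 bases before to 50 bases after a RefSeq start (number in parentheses: the start), the x axis gives the distance of the match from the start in bases, and red squares mark the NF-kB consensus; 5 genes hold at least 1 match.

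Per length of transcript, the 10 genes fell into a high and a low set. In sgCtrL without IFNγ, Nfkbiz, which encodes a nuclear IkB that acts with NF-kB on secondary response genes, stood highest at 104 ± 1.01 TPM (SD, n = 3), followed by Nfkb1 at 88.3 ± 3.83, Rela at 81.7 ± 1.96, Nfkbia at 80.4 ± 4.29, Bcl3 at 59.3 ± 3.19, Nfkb2 at 43.4 ± 0.543 and Relb at 24.2 ± 2.95 TPM. Birc3 at 5.57 ± 0.561, Tnfaip3 at 3.85 ± 0.425 and Nfkbie at 2.43 ± 0.141 TPM made up the low set. In this group the libraries of Rela and Nfkbia overlapped, and those of each other pair of neighbours in the order did not. In Sin3Bsg1 without IFNγ, Nfkbiz, Nfkb1, Nfkbia and Rela ran from 88.6 to 84.3 TPM on average, each overlapping the next, and Birc3 and Tnfaip3 overlapped too. In the untreated experiment Rela led with 87.7 ± 2.74 TPM (SD, n = 2) in sgCtrL and Nfkbiz, in place 5, with 41.6 ± 0.339 TPM. Nfkbia stood at 37.9 ± 1.16 TPM there. The tables of the 2 experiments were processed and scaled apart, so that levels are set side by side without a test between them.

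**Figure D2:**
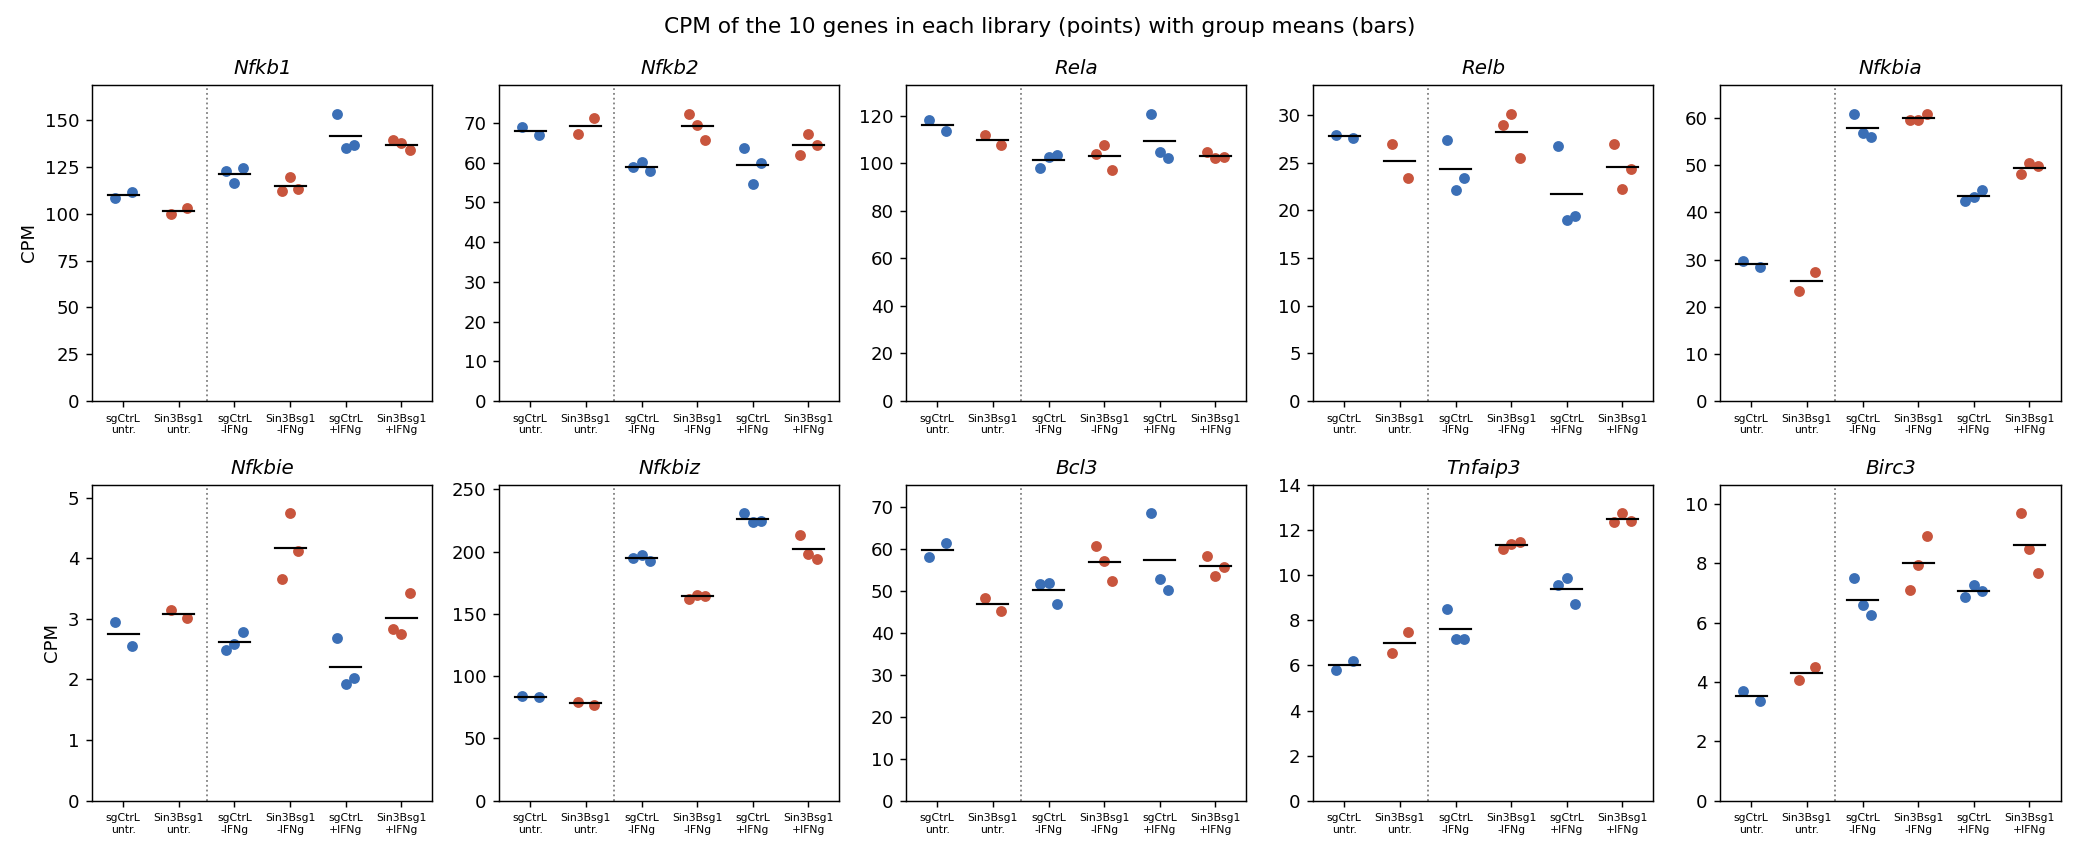
CPM of the 10 genes in each of the 16 libraries. Each panel is a gene, points are libraries (blue sgCtrL, red Sin3Bsg1), black bars are group means, and the dotted line separates the untreated experiment (left) from the IFNγ experiment; the red points of Tnfaip3 lie above the blue ones and those of Nfkbiz below them in each matched pair of groups.

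Without IFNγ, the feedback genes Tnfaip3 and Nfkbie and the subunit gene Nfkb2 rose in Sin3Bsg1 and Nfkbiz fell, while the other 6 genes did not pass the test. These 4 of 10 compare with 17.2% of all 14913 genes (edgeR, adjusted p under 0.05), the 3 that rose with 7.89% and the 1 that fell with 9.33%. The median log2 fold change of the 10 genes was 0.20, against -0.0090 over all genes tested, and 9.66% of all genes changed by at least as much as Nfkbie, the member that changed most.

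Tnfaip3 (ENSMUSG00000019850, GRCm39 chr10:18874201-18891405) encodes a ubiquitin-editing enzyme that shuts off signalling from TNF and Toll-like receptors. It read 8.51, 7.17 and 7.16 CPM in the sgCtrL libraries without IFNγ and 11.2, 11.4 and 11.5 CPM in Sin3Bsg1. Each edited library lay above each control. The rise was 1.49-fold, a log2 fold change of 0.58 (SE 0.093, 95% interval 0.38 to 0.78, edgeR adjusted p = 0.000388). With IFNγ the sgCtrL libraries read 9.59, 9.89 and 8.73 CPM and the Sin3Bsg1 libraries 12.4, 12.7 and 12.4 CPM, again without overlap, a 1.33-fold rise (log2 fold change 0.41, SE 0.090, edgeR adjusted p = 0.00474). Both calls held in each of the 19 alternatives. Untreated, Tnfaip3 read 5.81 and 6.19 CPM in sgCtrL and 6.53 and 7.48 CPM in Sin3Bsg1, and the log2 fold change of 0.22 (95% interval -0.071 to 0.52) did not pass the test (edgeR adjusted p = 0.254).

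Nfkbie (ENSMUSG00000023947, GRCm39 chr17:45866585-45874661), the inhibitor IkB epsilon, was the least abundant of the 10 genes, with 45 to 109 counts per library in the IFNγ experiment. Without IFNγ it read 2.48, 2.59 and 2.78 CPM in sgCtrL and 3.65, 4.74 and 4.13 CPM in Sin3Bsg1, with no overlap. This 1.59-fold rise (log2 fold change 0.67, SE 0.18, edgeR adjusted p = 0.0188) no longer passed the test without sgCtrL library 1 (adjusted p = 0.0693), sgCtrL library 2 (0.0638) or Sin3Bsg1 library 2 (0.0914). With IFNγ the values were 2.68, 1.93 and 2.03 CPM against 2.84, 2.74 and 3.43 CPM, and the log2 fold change of 0.45 (SE 0.19) missed the threshold (edgeR adjusted p = 0.127). Without the sgCtrL library that stood apart it was 0.62 and passed (adjusted p = 0.0436). Untreated, Nfkbie read 2.95 and 2.55 CPM against 3.14 and 3.01 CPM (log2 fold change 0.16, edgeR adjusted p = 0.618).

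Among the subunits, Nfkb2 (ENSMUSG00000025225, GRCm39 chr19:46292759-46303812), whose product is processed in the non-canonical pathway, was the gene that differed without IFNγ. It read 59.0, 60.1 and 58.0 CPM in sgCtrL and 72.4, 69.5 and 65.7 CPM in Sin3Bsg1. The groups did not overlap and the log2 fold change was 0.23 (SE 0.059, edgeR adjusted p = 0.0134), a 1.17-fold rise that missed the threshold without sgCtrL library 3 (adjusted p = 0.0572) or Sin3Bsg1 library 1 (0.0755). With IFNγ the values overlapped, at 63.6, 54.7 and 59.9 CPM against 61.9, 67.3 and 64.4 CPM (log2 fold change 0.12, edgeR adjusted p = 0.189), and without the sgCtrL library that stood apart the difference was 0.19 (adjusted p = 0.0270). Untreated, its log2 fold change was 0.023 (95% interval -0.069 to 0.12).

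Relb, the partner of the Nfkb2 product, had estimates of 0.22 (SE 0.12) without and 0.18 (SE 0.12) with IFNγ, and neither passed the test (edgeR adjusted p = 0.252 and 0.357). Its sgCtrL libraries read 27.4, 22.1 and 23.4 CPM without IFNγ and 26.8, 19.0 and 19.4 CPM with it. The Sin3Bsg1 libraries read 29.0, 30.1 and 25.5 CPM and 26.9, 22.3 and 24.4 CPM, overlapping their controls in both states. Without IFNγ the difference passed in a fit of the 6 libraries alone (adjusted p = 0.0383). Leaving out the sgCtrL library that stood apart brought the difference with IFNγ to 0.37 (adjusted p = 0.0144). Rela, the main activating subunit, had log2 fold changes of 0.025 without IFNγ (95% interval -0.10 to 0.15) and -0.084 with IFNγ (-0.21 to 0.043), and Nfkb1, its usual partner, of -0.074 (-0.19 to 0.041) and -0.049 (-0.16 to 0.064), each an interval that includes 0.

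Nfkbiz (ENSMUSG00000035356, GRCm39 chr16:55631738-55659262) moved the other way. Without IFNγ it read 195, 198 and 192 CPM in sgCtrL and 162, 166 and 165 CPM in Sin3Bsg1, and every edited library was below every control. It fell by 15.8%, a log2 fold change of -0.25 (SE 0.044, edgeR adjusted p = 0.000953), and this call held in each of the 19 alternatives. With IFNγ it read 231, 224 and 224 CPM in sgCtrL and 214, 198 and 194 CPM in Sin3Bsg1, and fell by 10.8% (log2 fold change -0.16, SE 0.044, edgeR adjusted p = 0.0171). That call was lost without Sin3Bsg1 library 2 (adjusted p = 0.0811) or 3 (0.0728) with IFNγ and in a fit of the 6 libraries alone (0.0960). The untreated experiment gave 83.7 and 82.9 CPM against 79.6 and 77.0 CPM (log2 fold change -0.089, edgeR adjusted p = 0.0898).

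With IFNγ, 3 of the 10 genes differed between the genotypes, where 16.5% of all genes did: Tnfaip3 and Nfkbia were higher (8.62% of all genes were) and Nfkbiz lower (7.90%). The median of the 10 was 0.15 against 0.0036 over all genes tested. Nfkbia (ENSMUSG00000021025, GRCm39 chr12:55535332-55539432) encodes IkB alpha, the inhibitor that NF-kB itself switches on and that ends a signalling pulse. It read 42.4, 43.2 and 44.8 CPM in sgCtrL with IFNγ and 48.1, 50.6 and 49.8 CPM in Sin3Bsg1 with IFNγ. The groups did not overlap, and the 1.14-fold rise (log2 fold change 0.19, SE 0.050, edgeR adjusted p = 0.0170) was lost without Sin3Bsg1 library 2 with IFNγ (adjusted p = 0.0763), in a fit of the 6 libraries alone (0.0760) and without the filter on low counts (0.0612). Without IFNγ the values of 60.9, 56.8 and 55.9 CPM in sgCtrL and 59.6, 59.6 and 61.0 CPM in Sin3Bsg1 overlapped, with a log2 fold change of 0.053 (95% interval -0.051 to 0.16).

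Birc3, a ubiquitin ligase that is recruited to TNF receptors, had estimates above 0 in all 3 genotype comparisons, and none passed the test. It read 7.49, 6.59 and 6.25 CPM in sgCtrL and 7.11, 7.96 and 8.94 CPM in Sin3Bsg1 without IFNγ (log2 fold change 0.24, SE 0.12, edgeR adjusted p = 0.219). With IFNγ the groups did not overlap, at 6.86, 7.29 and 7.07 CPM against 9.68, 8.47 and 7.68 CPM (0.28, SE 0.12, adjusted p = 0.132). Among the 10 genes 5 had groups that did not overlap without IFNγ and 5 with it, against 39.2% and 30.4% of all genes.

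**Figure D3:**
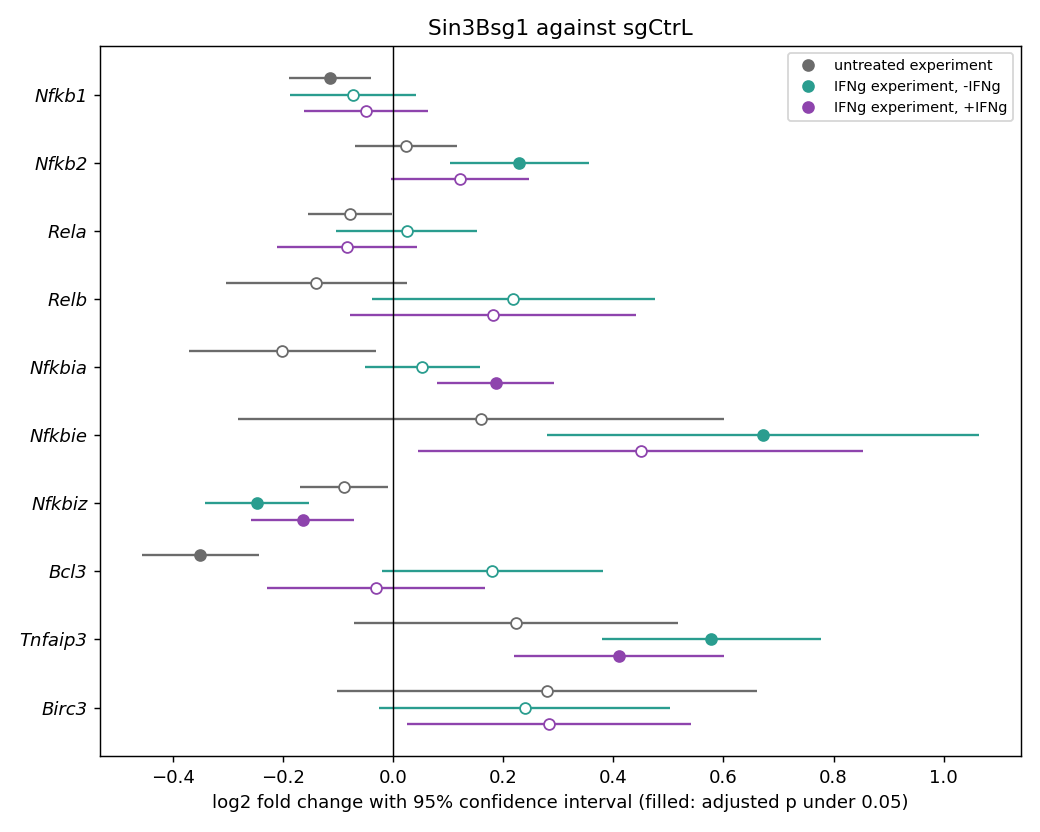
Log2 fold change of Sin3Bsg1 against sgCtrL for the 10 genes in 3 comparisons. Points are edgeR estimates, lines are 95% confidence intervals, and filled points passed an adjusted p of 0.05; Tnfaip3 is filled in both states of the IFNγ experiment, at 0.58 and 0.41, and Bcl3 lies at -0.35 in the untreated experiment and at 0.18 without IFNγ.

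In the untreated experiment, with 2 libraries a group, Bcl3 and Nfkb1 passed the test, both lower in Sin3Bsg1, and no gene passed as higher. These 2 of 10 compare with 31.1% of all 14589 genes tested, and with 16% that were lower (edgeR, adjusted p under 0.05). The groups did not overlap for 9 of the 10, against 63.3% of all genes. By estimate Tnfaip3 (0.22), Birc3 (0.28) and Nfkbie (0.16) were higher here too, and Nfkbiz was lower (-0.089). Bcl3, Relb, Nfkbia and Rela had estimates of the opposite sign to those without IFNγ. Whether the 2 experiments differ was not tested. Bcl3 (ENSMUSG00000053175, GRCm39 chr7:19541553-19557570), a nuclear IkB that binds subunit pairs on DNA, read 58.0 and 61.3 CPM in sgCtrL and 48.2 and 45.3 CPM in Sin3Bsg1. It fell by 21.6% (log2 fold change -0.35, SE 0.050, edgeR adjusted p = 4.36e-05), and the call held in each of the 10 alternatives. In the IFNγ experiment without IFNγ the same gene read 51.6, 51.7 and 46.9 CPM in sgCtrL and 60.7, 57.1 and 52.3 CPM in Sin3Bsg1, so that each edited library lay above each control, and the log2 fold change of 0.18 (SE 0.094) missed the threshold (edgeR adjusted p = 0.221). It passed without the sgCtrL library that stood apart (adjusted p = 0.0280) and in a fit of the 6 libraries alone (0.0177). That library had IFNγ and is in neither group compared here, so it enters only through the fit that the 12 libraries share. With IFNγ the values were 68.4, 52.9 and 50.3 CPM against 58.2, 53.6 and 55.7 CPM, with a log2 fold change of -0.032 that turned to 0.13 without the library that stood apart.

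Nfkb1 (ENSMUSG00000028163, GRCm39 chr3:135290264-135397742) read 108 and 112 CPM in untreated sgCtrL and 100.1 and 103 CPM in untreated Sin3Bsg1. Its fall by 7.67% (log2 fold change -0.12, SE 0.035, edgeR adjusted p = 0.0190) was lost without sgCtrL library 2 (adjusted p = 0.144) or Sin3Bsg1 library 1 (0.118). Nfkbia read 29.7 and 28.5 CPM against 23.2 and 27.4 CPM, and its log2 fold change of -0.20 (SE 0.080, edgeR adjusted p = 0.0686) was past the threshold without Sin3Bsg1 library 2 (-0.32, adjusted p = 0.00167) and with the replicate number as a block (adjusted p = 0.0446). Rela read 118 and 114 CPM against 112 and 108 CPM (-0.078, adjusted p = 0.114). Relb read 27.9 and 27.5 CPM against 27.0 and 23.4 CPM (-0.14, adjusted p = 0.197), and passed without Sin3Bsg1 library 1 (-0.25, adjusted p = 0.0239). Birc3, at 3.69 and 3.37 CPM against 4.08 and 4.50 CPM, did not pass (0.28, 95% interval -0.10 to 0.66).

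IFNγ shifted the family little beside Irf1, and not in 1 direction. In sgCtrL, Nfkb1, Nfkbiz and Tnfaip3 rose and Nfkbia fell, 4 of 10 where 30.3% of all genes were called (15.7% higher and 14.5% lower). In Sin3Bsg1, Nfkb1 and Nfkbiz rose and Nfkbia fell, 3 of 10 where 28.4% were called (16.1% higher and 12.3% lower). Scaling by library totals alone changed the split over all genes from 2344 higher and 2168 lower to 1644 and 3091 in sgCtrL, and from 2396 and 1836 to 1546 and 3046 in Sin3Bsg1. Under that scaling the calls of Nfkb1, Nfkbiz and Nfkbia kept their direction in both genotypes, and Tnfaip3 in sgCtrL did not pass (adjusted p = 0.0655). The median of the 10 was 0.087 in sgCtrL and -0.011 in Sin3Bsg1, against -0.00063 and 0.0052 over all genes. The 2 treatment contrasts use different libraries, and each shares a group with both genotype contrasts of the IFNγ experiment.

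Nfkbia was the gene of the 10 that fell with IFNγ. In sgCtrL it went from 60.9, 56.8 and 55.9 CPM to 42.4, 43.2 and 44.8 CPM, a fall by 24.9% (log2 fold change -0.41, SE 0.050, edgeR adjusted p = 1.04e-05). In Sin3Bsg1 it went from 59.6, 59.6 and 61.0 CPM to 48.1, 50.6 and 49.8 CPM, a fall by 17.6% (log2 fold change -0.28, SE 0.049, edgeR adjusted p = 0.000412). Treated and untreated libraries did not overlap in either genotype, and both calls held in each of the 19 alternatives. The difference between the falls was 0.13 (95% interval -0.015 to 0.28), with an unadjusted p of 0.0753 and an edgeR adjusted p of 0.914. Nfkbie had estimates of -0.25 (SE 0.20) in sgCtrL and -0.47 (SE 0.18) in Sin3Bsg1 that did not pass (edgeR adjusted p = 0.376 and 0.0610), although its Sin3Bsg1 libraries did not overlap. The second passed in 4 of the 19 alternatives, such as without the sgCtrL library that stood apart (-0.48, adjusted p = 0.0357) and without Sin3Bsg1 library 3 with IFNγ (-0.60, adjusted p = 0.0466). The sgCtrL library is in neither Sin3Bsg1 group and enters only through the shared fit.

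Nfkb1 went from 123, 116 and 124 CPM to 153, 135 and 137 CPM in sgCtrL (log2 fold change 0.23, SE 0.054, edgeR adjusted p = 0.00440). In Sin3Bsg1 it went from 112, 120 and 113 CPM to 140, 138 and 134 CPM (0.25, SE 0.053, adjusted p = 0.00200). Nfkbiz rose by 0.22 (SE 0.044, edgeR adjusted p = 0.00153) in sgCtrL and by 0.30 (SE 0.044, adjusted p = 8.03e-05) in Sin3Bsg1 on the log2 scale. For both genes all treated libraries were above all untreated ones in each genotype, and the 4 calls held in each of their 19 alternatives. Tnfaip3 rose in sgCtrL by 0.31 on the log2 scale (SE 0.095, edgeR adjusted p = 0.0228), a call that 7 of the 19 alternatives lost. Those were DESeq2 (adjusted p = 0.0675), library totals alone, no filter on low counts, the 6 libraries alone and leaving out sgCtrL library 2 (0.0945) or 3 (0.0825) without IFNγ or library 2 with IFNγ (0.0798). In Sin3Bsg1 its difference was 0.14 (95% interval -0.047 to 0.33, adjusted p = 0.265). The groups did not overlap for 4 of the 10 genes in sgCtrL and 5 in Sin3Bsg1, against 41.5% and 45.4% of all genes.

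Relb was lower with IFNγ by estimate, at -0.16 (SE 0.12) in sgCtrL and -0.20 (SE 0.12) in Sin3Bsg1, and did not pass (edgeR adjusted p = 0.352 and 0.232), but without the sgCtrL library that stood apart the first was -0.35 (adjusted p = 0.0141). Rela, Nfkb2, Birc3 and Bcl3 did not pass in either genotype, with estimates from -0.10 to 0.19. Nfkb2 in Sin3Bsg1 passed with library totals alone (-0.19, adjusted p = 0.0180). Bcl3 in sgCtrL, at 0.19, was 0.033 without the library that stood apart and passed without sgCtrL library 3 with IFNγ (0.27, adjusted p = 0.0448). The interaction of genotype and IFNγ was past the threshold for 0 of the 10 genes by edgeR, which called 17 of all genes (0.114%, with 0.0805% higher and 0.0335% lower). It was at an unadjusted p under 0.05 for 0 of the 10, and DESeq2 called 0 of the 10 and 32 of all genes. Its estimates ran from -0.22 for Nfkbie to 0.13 for Nfkbia, with standard errors up to 0.27.

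**Figure D4:**
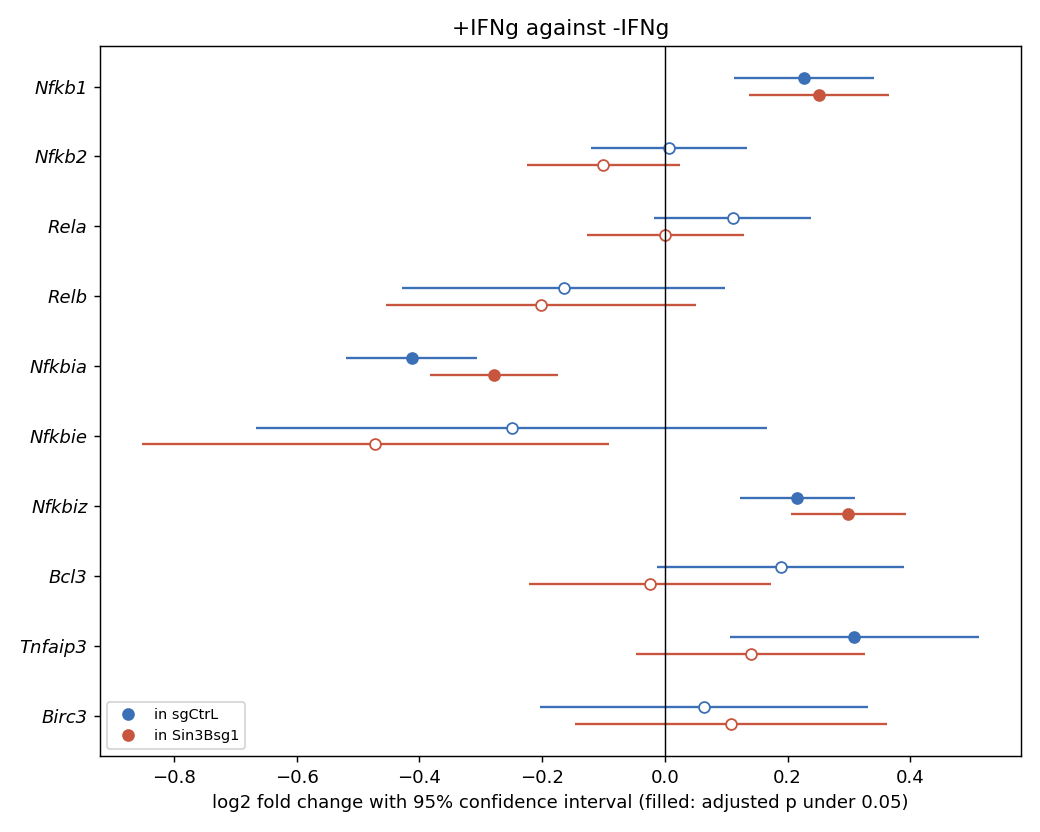
Log2 fold change of +IFNγ against -IFNγ for the 10 genes in sgCtrL (blue) and Sin3Bsg1 (red). Points are edgeR estimates, lines are 95% confidence intervals, and filled points passed an adjusted p of 0.05; Nfkbia lies at -0.41 and -0.28, and Nfkb1 and Nfkbiz lie between 0.22 and 0.30.

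The other genes of the pathway were counted in 7 lists with 93 genes. The lists were chosen with earlier results of these data known. The list with the most calls between the genotypes was that of genes often used as NF-kB targets, which was also the longest, with 26 genes. Without IFNγ 11 of its 23 tested genes rose and 1 fell, with IFNγ 8 rose and 0 fell, and in the untreated experiment 8 of 17 rose and 2 fell. Of all genes tested, 7.89% were higher and 9.33% lower without IFNγ, 8.62% and 7.90% with it, and 15.1% and 16% in the untreated experiment. Its median log2 fold change was 0.21, 0.15 and 0.15, beside -0.0090, 0.0036 and 0.0024 over all genes tested. Many of these genes answer to interferon or other signals as well. Icam1, an adhesion molecule for leukocytes, ran from 1.04 to 2.03 CPM in sgCtrL and from 4.07 to 4.25 CPM in Sin3Bsg1 without IFNγ, a rise by 1.51 (SE 0.18, edgeR adjusted p = 2.35e-05) on the log2 scale. With IFNγ it ran from 7.13 to 8.54 CPM and from 17.9 to 19.9 CPM, a rise by 1.27 (SE 0.13, adjusted p = 3.91e-06). Untreated, Icam1 rose by 0.81 (SE 0.18, adjusted p = 0.00230). Vcam1, another adhesion molecule, rose by 1.08 (SE 0.098, adjusted p = 1.34e-06) without IFNγ, from 12.9 ± 1.43 to 27.3 ± 2.64 CPM. The chemokine Ccl20 rose by 1.56 (SE 0.24, adjusted p = 0.000257) without and by 0.97 (SE 0.23, adjusted p = 0.00834) with IFNγ, and in the untreated experiment it had 1 to 7 counts per library.

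Untreated Sin3Bsg1 cells had more of the membrane chemokine Cx3cl1 (0.85 on the log2 scale, SE 0.094, edgeR adjusted p = 3.03e-06) and less Plau, the urokinase gene (-0.47, adjusted p = 0.000101), and Csf1, a macrophage growth factor (-0.26, adjusted p = 2.39e-05). Plau and Csf1 were among the genes that rose without IFNγ in the other experiment, by 0.62 and 0.45, as genes singled out after their values were seen. The fall was Csf3 alone in the list there (-1.41, adjusted p = 0.00683), also singled out afterwards.

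The kinases, adaptors and ligands upstream of the subunits are read beside the same shares of all genes. Of the 11 genes of the IKK complex and kinases, Ikbkg, the regulatory IKK subunit, fell without IFNγ (-0.34, SE 0.061, edgeR adjusted p = 0.00101) and with it (-0.25, adjusted p = 0.00766), and Ikbke rose without IFNγ (0.48, adjusted p = 0.000529). Untreated, 3 of the 11 fell and 0 rose, with Tab2 at -0.24, Ikbkb at -0.13 and the low Map3k8 at -0.92, the last named after its values were seen. Among 18 adaptors and ubiquitin ligases, Irak1 fell in both states of the IFNγ experiment (-0.17 in each, adjusted p = 0.0145 and 0.0149), and with IFNγ 3 rose, with Rnf31 at 0.34, Myd88 at 0.26 and Sharpin, named after its values were seen, at 0.21. Rnf31 and Sharpin are parts of the ligase that builds linear ubiquitin chains. Traf5 fell by 0.66 (SE 0.11, adjusted p = 0.000166) in the untreated experiment, where Rbck1 rose by 0.098 and Irak1 did not pass (0.0076, adjusted p = 0.919). The other subunit and IkB genes (Rel, Nfkbib, Nfkbid and the Nkiras genes, 4 tested) held 1 call, Nkiras2 at 0.19 in the untreated experiment. Of the 5 tested ligand genes 0 rose without IFNγ and 1 fell with it, Il33, an alarmin (-0.24, adjusted p = 0.0319). Untreated, Il33 rose by 0.62 (adjusted p = 1.95e-05).

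Receptor genes went both ways. Tlr3, a sensor of double-stranded RNA, rose in Sin3Bsg1 in all 3 comparisons (0.38, 0.35 and 0.29, edgeR adjusted p = 0.00459, 0.0157 and 0.0172), and Il1r1, the receptor for interleukin-1, fell in the 3 (-0.23, -0.21 and -0.24, adjusted p = 0.00279, 0.0177 and 0.00895). Without IFNγ 2 of 11 rose and 3 fell, with IFNγ 1 and 1, and in the untreated experiment 3 and 3, beside the 17.2%, 16.5% and 31.1% of all genes called. Tnfrsf1b, a TNF receptor, rose by 0.27 and Tlr4 fell by 0.18 without IFNγ. Among the other negative regulators, Zc3h12a, an RNase that degrades cytokine messages, rose without IFNγ (0.35, adjusted p = 0.00649), and so did Tnip3, a partner of the Tnfaip3 protein that was named because it is the other of the 2 calls (1.66, SE 0.22, from 0.908 to 1.40 CPM in sgCtrL to 2.78 to 4.13 CPM in Sin3Bsg1). With IFNγ Tnip3 rose from 2.26 ± 0.208 to 4.56 ± 0.304 CPM (adjusted p = 0.00183) and Cyld, a deubiquitinase, fell by 0.16 (adjusted p = 0.0377). Over the 7 lists 16 of 82 tested genes rose and 6 fell without IFNγ, 13 and 5 with IFNγ, and 15 and 9 of 74 in the untreated experiment, where 17.2%, 16.5% and 31.1% of all genes were called in either direction.

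With IFNγ 27 of the 82 genes rose and 13 fell in sgCtrL, where 15.7% of all genes were higher and 14.5% lower, and 29 and 11 in Sin3Bsg1, where 16.1% and 12.3% were. The larger rises were of Icam1 (2.41 in sgCtrL and 2.16 in Sin3Bsg1, edgeR adjusted p = 1.99e-08 and 3.13e-09), Tlr3 (1.91 and 1.84) and Cx3cl1 (1.69 in each). Tnfsf10, the death ligand TRAIL, had 0 to 6 counts per library without IFNγ and 14.3 ± 1.31 CPM in sgCtrL and 17.5 ± 0.810 CPM in Sin3Bsg1 with it (SD, n = 3), and no fold is given from so few counts. The parts of the linear ubiquitin ligase Rnf31 (from 14.2 to 28.5 CPM on average in sgCtrL, and by 1.09 on the log2 scale in Sin3Bsg1) and Rbck1 (0.73 and 0.68) and the deubiquitinase Cyld (0.70 and 0.67) rose in both genotypes. The early response gene Ier3 (-0.67 and -0.75), the iron-binding Lcn2 (-0.46 and -0.63), Il33 (-0.79 and -0.91) and Il1r1 (-0.27 and -0.30) fell in both. The interaction was past the threshold for 0 of the 82 genes by edgeR.

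**Figure D5:**
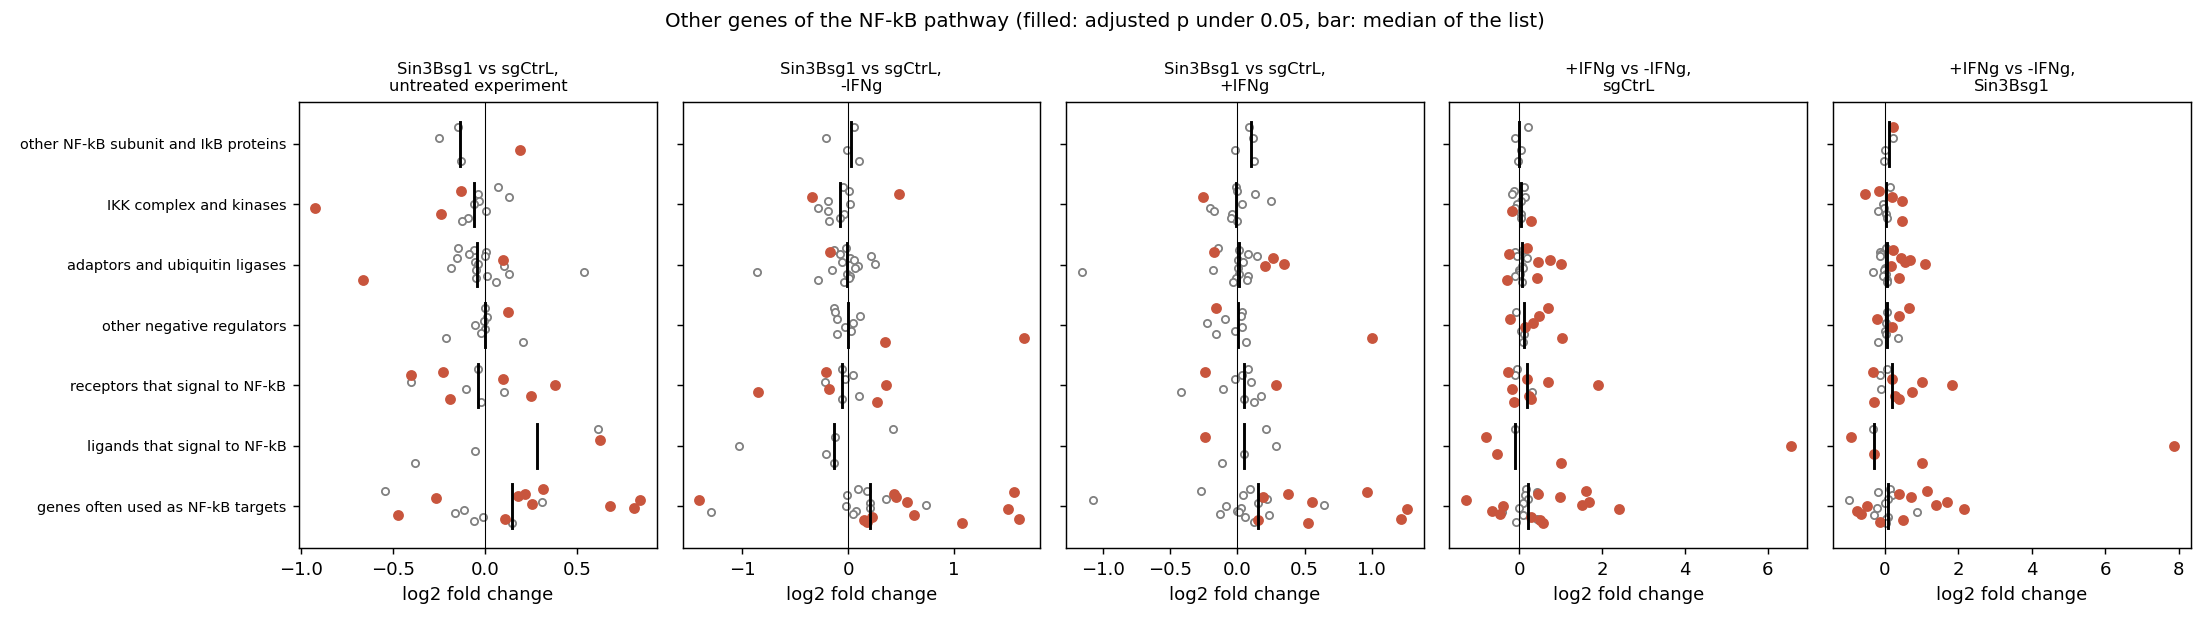
Log2 fold change of the tested genes of 7 NF-kB pathway lists in 5 comparisons, each panel with its own x axis. Points are genes (filled red: edgeR adjusted p under 0.05, open: not past it) and black bars are list medians; the bar of the target list lies at 0.15, 0.21 and 0.15 in the 3 genotype panels, and the isolated point at the right of the IFNγ panels is Tnfsf10, which had 0 to 6 counts without IFNγ.

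Pearson's r of log2 CPM was computed over the 12 libraries of the IFNγ experiment, which differ in genotype and treatment. Group means were not removed, so that r also holds the differences between groups given above. Whether genes vary with each other within a group was not tested. Among the pairs of the 10 genes r was highest for Nfkb1 with Nfkbiz (0.850), Tnfaip3 with Birc3 (0.797) and Nfkb2 with Nfkbie (0.797), and lowest for Nfkb1 with Nfkbia (-0.898) and Nfkbia with Nfkbiz (-0.880). Of all genes tested, the closest to Tnfaip3 were Foxp1 (0.982) and Tnip3 (0.975), the closest to Nfkbia Itgb3 (0.984) and Thbs3 (0.977), and the closest to Nfkbiz Cyp1b1 (0.985) and Sting1 (0.984). Nfkb1 was nearest to Nol10 (0.986) and Ddx52 (0.978), Nfkb2 to Akr1b7 (0.965) and Agpat2 (0.959), and Nfkbie to Capn7 (0.956) and Traf4 (0.952). For Relb they were Sympk (0.946) and Rcc2 (0.931), for Birc3 Aqr (0.944) and Ints6 (0.932), for Rela Slc31a1 (0.939) and Jund (0.920), and for Bcl3 Pcbp1 (0.913) and Zfp524 (0.912). These values were picked as the highest of 14913 genes and carry no test.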

How the data were processed

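RNA-seq libraries of KPC1199 cells were taken from 2 experiments, and the authors deposited estimated counts per gene, without normalization, in a table for each. The study's methods name HISAT2 with mouse mm9 and featureCounts, while the submitters' processing notes name fastp, HISAT2, StringTie, DESeq2 and mm 39; the estimated counts hold decimals. Versions, annotation and strand setting are not given in the sources used here, so reads of overlapping genes cannot be told apart. Columns of group means were checked against the replicates and not used. The control columns carry a lacZ guide name and were taken as sgCtrL, the one guide beside Sin3Bsg1. The untreated table also held assembled loci, of which 324 without a gene name (0.615 to 0.677% of the counts) were left out.

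Counts were rounded and tested with edgeR 4.0.16 in R 4.3.3 (TMM, filterByExpr, glmQLFit, glmQLFTest, two-sided, Benjamini-Hochberg over all genes tested, threshold 0.05), with the experiments fitted apart and the 12 IFNγ libraries in 1 fit with a mean per group. Intervals are 95% and standard errors come from the F statistic. The biological coefficient of variation was 2.84% in the untreated and 6.78% in the IFNγ experiment. TPM used the deposited gene lengths. Floors of 3 counts cover counting error only. The fits were tested on simulated data. Alternatives were DESeq2 1.42.0, other scalings and filters, a replicate block, the compared libraries alone and leaving out each library. The 10 genes and the lists were chosen with earlier results of these data known. Named list genes are, per list and comparison, up to 2 largest rises and 2 largest falls among calls that average 5 CPM or more in a compared group, and the 2 genes of highest r for each member. Promoters came from RefSeq (GRCm38.p6), and gene positions and the guide match from GENCODE on GRCm39. Figures came from matplotlib 3.10.9, and tables from pandas 2.3.3 under Python 3.11.15.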

Additional observations from a re-analysis of the deposited data

Results flagged for a closer look

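Bcl3 differed between the genotypes in opposite directions in the 2 experiments. In the untreated experiment both Sin3Bsg1 libraries were below both sgCtrL libraries (log2 fold change -0.35), and in the IFNγ experiment without IFNγ the 3 Sin3Bsg1 libraries were above the 3 sgCtrL libraries (0.18). The first passed the test and the second did not, and the difference between the experiments was not tested, because their tables were processed and fitted apart.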

How the results depend on the processing

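The 16 calls on the 10 genes kept their direction under each alternative run, and among the values of these genes under alternatives 969 kept their side of the threshold and their direction, 20 lost a call, 17 gained one and 34 changed sign. In a fit of the 6 compared libraries alone 3996 genes were called without IFNγ, and 1500 genes and 1 member with IFNγ. Library totals alone gave 5 members for IFNγ in Sin3Bsg1, and the interaction was called for 32 genes by DESeq2 and 110 without the filter. Leaving out a library in turn, the untreated experiment called 3650 to 4221 genes and 1 to 3 members, the genotype contrast 1864 to 3529 and 3 to 5 without IFNγ and 1782 to 2945 and 1 to 6 with it, IFNγ 3545 to 4726 and 3 to 5 in sgCtrL and 3347 to 5248 and 3 to 4 in Sin3Bsg1, and the interaction 1 to 33 and 0. The values that changed sign belong to differences that had not passed the test. For IFNγ in sgCtrL, Nfkb2 was -0.000158 (RLE factors), -0.062 (library totals) and -0.00169 (at least 10 counts in every library), and Birc3 -0.0041 (library totals). For IFNγ in Sin3Bsg1, Rela was -0.018 (DESeq2), -0.020 (RLE), -0.084 (totals), -0.0093 (no filter), -0.0064 (at least 10 counts) and -0.000506 (6 libraries). Without 1 library the ranges were -0.020 to 0.068 for Nfkb2 (untreated), -0.0070 to 0.065 for Rela without IFNγ, and with IFNγ -0.083 to 0.024 for Nfkb1, -0.13 to 0.0055 for Rela and -0.12 to 0.13 for Bcl3. For IFNγ they were -0.055 to 0.065 for Nfkb2 in sgCtrL, and in Sin3Bsg1 -0.038 to 0.035 for Rela, -0.012 to 0.20 for Birc3 and -0.083 to 0.029 for Bcl3. For the interaction they were -0.012 to 0.087 for Nfkb1, -0.13 to 0.14 for Relb and -0.072 to 0.13 for Birc3. The cause of these changes was not tested. Fits of fewer libraries hold less data by construction, but they did not always call fewer genes. The 6 compared libraries alone gave 3996 genes without IFNγ and 1500 with it, where the main fit gave 2568 and 2464. Without the sgCtrL library that stood apart 3529 genes were called without IFNγ, a comparison that this library is not part of. A group left with 1 library was assumed to vary like the others.

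The libraries of different groups share replicate numbers. In the IFNγ experiment the correlation of deviations ran from -0.132 to 0.262 between libraries of the same number and from -0.257 to 0.187 between other numbers. Between the 2 groups with IFNγ the same-number values were 0.205, 0.262 and -0.00595. In the untreated experiment it was -0.00481, where 2 libraries a group deviate by equal and opposite amounts, so that it says little. The numbers were not taken as pairs in the main fit. With a replicate block 4675 genes were called in the untreated experiment, 2511 without and 2388 with IFNγ, 4400 and 4207 for IFNγ in sgCtrL and Sin3Bsg1, and 13 for the interaction, and among the 10 genes the block changed the call of Nfkbia in the untreated experiment and no other. With 2 or 3 libraries a group, an estimate that missed the threshold does not show that a gene was unaltered, and in the IFNγ experiment the standard errors were largest for Nfkbie, the gene with the fewest counts.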
